A study of Mus musculus with 6 samples.

Results

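The purinergic genes examined here encode receptors for extracellular nucleotides and adenosine and the ectoenzymes that convert one ligand into the next. The list held 10 genes and was drawn up because P2rx7 was high on all 3 arrays of Chd7f/f leukemias, so the P2rx7 values chose it and are given as a description. Each gene was read from the brightest probe set annotated to its symbol alone. Of the 10 genes 8 were measured, out of 22180 named genes, and each of the 8 had a single such probe set. The adenosine receptor genes Adora2a and Adora2b were not analysed here.

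The tested leukemias were Chd7f/f, Mx1-Cre, Cbfb+/56M, and the control leukemias were Mx1-Cre, Cbfb+/56M. Cbfb+/56M brings, once recombined, the Cbfb-MYH11 fusion that defines inv(16) acute myeloid leukemia. Mx1-Cre is a recombinase under an interferon-inducible promoter, and Chd7f/f adds floxed alleles of the chromatin remodeller gene Chd7. Mice of both genotypes received the mutagen ENU and pIpC, which induces Cre, and c-Kit+ cells were sorted from the spleen at end stage. There were 3 samples per genotype, called independent in the design text, and 1 array per sample. The labels do not say that each sample is 1 mouse, so the spread measured is that between these samples. SD is the plain spread of the arrays of a genotype. SE is the moderated standard error of the limma fit, in which each gene's variance is drawn toward a value common to all tested genes. All levels are RMA values (log2), and each difference is the Chd7f/f mean minus the control mean.

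ATP released by stressed or dying cells opens the P2X receptors, which are cation channels, and binds some of the P2Y receptors, which couple to G proteins. The ectoenzyme CD39, encoded by Entpd1, removes phosphates from ATP and ADP to leave AMP, and CD73, encoded by Nt5e, turns AMP into adenosine for the adenosine receptors. In macrophages and mast cells the P2X7 channel needs high ATP to open and is known for triggering the NLRP3 inflammasome and the release of interleukin 1.

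P2rx7 and P2rx4 lie next to each other on mouse chromosome 5. In GRCm38.p6, P2rx7 spans chr5:122643927-122692336 and P2rx4 spans chr5:122707518-122729739, starting 15182 bases after the end of P2rx7, both on the plus strand. P2rx1 lies apart from them at chr11:72999056-73015200. Start-site windows of these 3 channel genes are shown because P2rx7 and P2rx4 were higher and P2rx1 was lower on every Chd7f/f array. Entpd1 was also higher and Nt5e lower on every Chd7f/f array, and their windows are not shown. The windows come from the RefSeq table of GRCm38.p6, run from 250 bases before to 50 after an annotated start, and are written on the coding strand. RefSeq lists 2 starts for P2rx7, at windows chr5:122643677-122643976 and chr5:122650133-122650432, and 1 each for P2rx4 (chr5:122707294-122707593) and P2rx1 (chr11:72998895-72999194). Capitals mark short motifs on either strand. The letters GGGCGG stand for the GC box, which Sp1-like factors bind. The myeloid factor PU.1 was searched as GAGGAA on both strands. For factors of the GATA family the search used the letters AGATAA. For RUNX proteins, the DNA-binding partners of Cbfb, it used TGTGGT. No marked motifs overlap.
P2rx7, upstream start: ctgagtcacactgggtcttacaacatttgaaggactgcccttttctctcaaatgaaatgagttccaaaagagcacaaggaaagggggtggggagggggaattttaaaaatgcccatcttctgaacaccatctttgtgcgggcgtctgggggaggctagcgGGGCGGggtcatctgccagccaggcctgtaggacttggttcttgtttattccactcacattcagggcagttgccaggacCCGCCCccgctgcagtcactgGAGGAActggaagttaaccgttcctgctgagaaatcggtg
P2rx7, downstream start: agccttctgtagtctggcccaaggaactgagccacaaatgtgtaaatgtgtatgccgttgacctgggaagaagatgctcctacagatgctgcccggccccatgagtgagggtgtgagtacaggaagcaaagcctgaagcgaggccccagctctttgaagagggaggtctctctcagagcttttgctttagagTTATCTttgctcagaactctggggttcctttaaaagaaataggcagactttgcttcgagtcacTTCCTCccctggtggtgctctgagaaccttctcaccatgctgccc
P2rx4: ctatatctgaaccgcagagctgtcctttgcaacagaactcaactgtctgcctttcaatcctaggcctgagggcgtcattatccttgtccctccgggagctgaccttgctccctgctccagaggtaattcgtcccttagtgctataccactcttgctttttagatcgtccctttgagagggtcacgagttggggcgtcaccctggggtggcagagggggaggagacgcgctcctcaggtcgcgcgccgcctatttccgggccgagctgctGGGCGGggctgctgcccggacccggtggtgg
P2rx1: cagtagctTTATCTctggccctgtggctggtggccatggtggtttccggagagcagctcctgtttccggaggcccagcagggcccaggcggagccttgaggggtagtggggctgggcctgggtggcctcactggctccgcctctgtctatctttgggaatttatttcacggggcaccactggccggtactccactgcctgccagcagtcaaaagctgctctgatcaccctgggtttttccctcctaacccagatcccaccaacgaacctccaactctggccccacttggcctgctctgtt

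The upstream P2rx7 window held 2 GC boxes and 1 PU.1 motif, and the downstream one 1 GATA and 1 PU.1 motif. The P2rx4 window held 1 GC box and the P2rx1 window 1 GATA motif. A GC box was thus in the P2rx4 and upstream P2rx7 windows but not in the downstream one. It was not particular to them, as 7 of the 15 windows found for the listed genes held it. There was no window for Adora2a, and the 2 windows of P2ry2 overlap and hold the same 4 GC boxes. None of the 4 windows held TGTGGT, which says only that these letters are not there. Of the 15 windows 1 held it, at a start of Entpd1. Over all 32851 RefSeq windows of this length, 35.7% held the GC box, 28.3% the PU.1, 11.2% the GATA and 16.8% the RUNX letters. The array gives 1 value per gene, so transcripts from the starts of P2rx7 were not told apart.

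The gene behind the sort, Kit, was between 11.69 and 12.48 on the Chd7f/f arrays and between 11.68 and 12.12 on the control arrays. The floxed gene Chd7 was between 5.48 and 6.50 in Chd7f/f and between 5.32 and 7.54 in control leukemias. Where its probes lie relative to the floxed part is not known here, so this level is no check of the deletion. Mast cell and basophil markers averaged 8.44 to 8.96 over 8 genes in Chd7f/f and 8.17 to 8.86 in control leukemias. T cell markers averaged 4.19 to 4.44 over 7 genes in Chd7f/f and 4.20 to 4.38 in control leukemias, and Cd3g, Cd4 and Cd28 were below the filter on dim genes. Control replicate 2 alone had Xist at 10.08 and the Y-linked gene Eif2s3y at 4.43, against at most 3.88 for Xist and at least 8.72 for Eif2s3y on the other arrays. By these genes it was the only female-like array, and no Chd7f/f array was. The part of sex in differences that rest on control replicate 2 was not tested. None of the 15526 tested genes passed an adjusted p of 0.05 (limma, 0% called), and 286 genes had an unadjusted p under 0.05 (1.84%).

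**Figure D1:**
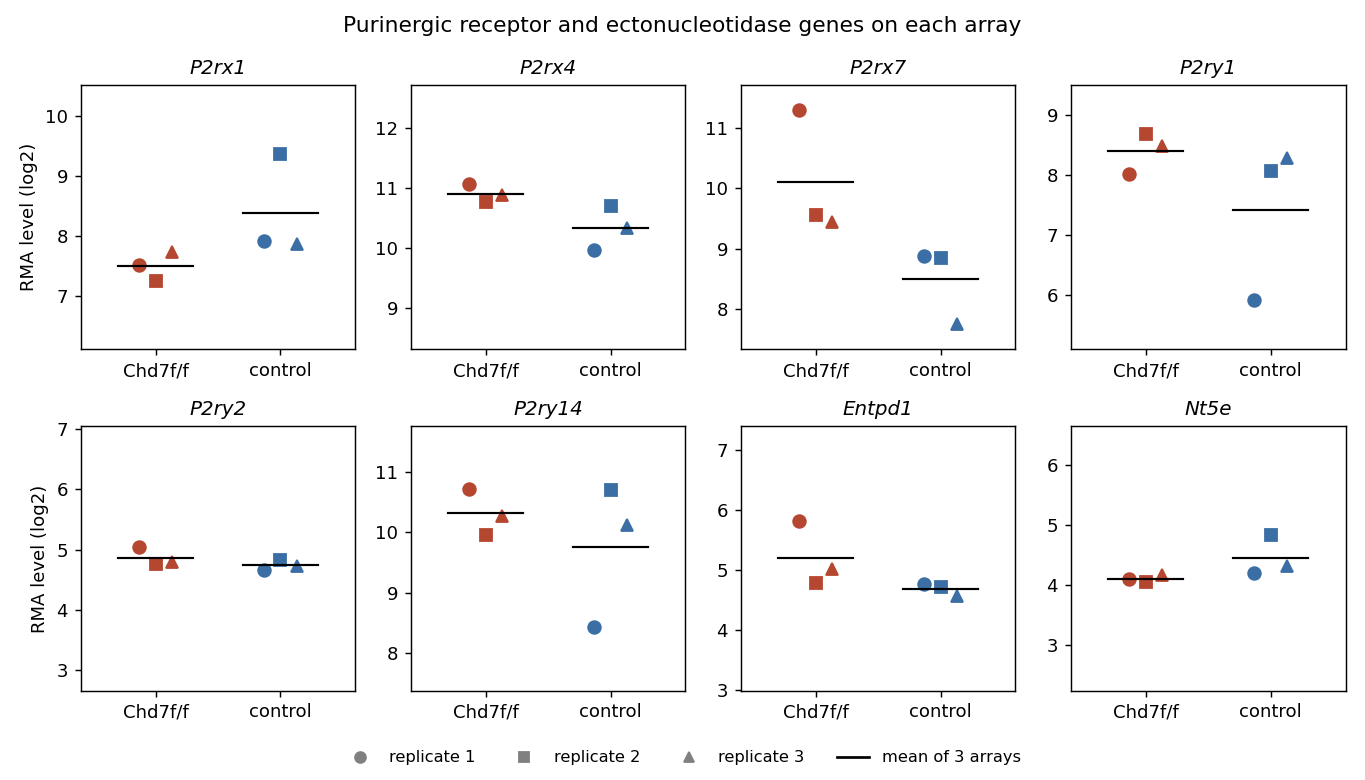
RMA level (log2) of the 8 measured genes on each array, with Chd7f/f on the left and control on the right of each panel; symbols are replicates and black lines the means of 3 arrays. Every panel spans the same number of log2 units; P2rx7 has the widest range over the 6 arrays and P2ry2 the narrowest, and control replicate 1 is the lowest array for P2ry1 and P2ry14.

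P2rx7 was at 11.30, 9.56 and 9.44 on the Chd7f/f arrays and at 8.88, 8.84 and 7.74 on the control arrays. All Chd7f/f values lay above all control values, and the lowest Chd7f/f array was 0.55 above the highest control array. Chd7f/f replicate 1 stood 1.75 above the next array, while the other Chd7f/f arrays were 0.12 apart, and control replicate 3 stood 1.10 below the next one. Means were 10.10 ± 1.04 (SD, n = 3) in Chd7f/f leukemias and 8.49 ± 0.65 (SD, n = 3) in controls, which differed by 1.61 (SE 0.58), or 3.06-fold. Without Chd7f/f replicate 1 the difference was 1.01, and without any other single array it was between 1.24 and 1.94. No test is given for P2rx7, since these values chose the list.

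P2rx4 encodes a channel that opens at lower ATP than P2X7 and sits in the lysosomes of macrophages as well as at the surface. It was at 11.06, 10.77 and 10.89 on the Chd7f/f arrays and at 9.97, 10.69 and 10.34 on the control arrays. The groups did not overlap, but Chd7f/f replicate 2 and control replicate 2 were 0.073 apart, less than the SD of 0.15 among Chd7f/f or 0.36 among control arrays. Means were 10.90 ± 0.15 (SD, n = 3) in Chd7f/f leukemias and 10.33 ± 0.36 (SD, n = 3) in controls, which differed by 0.57 (SE 0.21) and did not pass the test (limma, adjusted p = 0.99982). Without control replicate 1 it was 0.39.

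P2rx1, the rapidly desensitising ATP channel of platelets and smooth muscle, ran the other way. It was at 7.53, 7.26 and 7.73 in Chd7f/f and at 7.92, 9.37 and 7.87 in control leukemias. The groups did not overlap, by a gap of 0.14 between Chd7f/f replicate 3 and control replicate 3, and control replicate 2 stood 1.45 above every other array. Means were 7.51 ± 0.24 (SD, n = 3) in Chd7f/f leukemias and 8.39 ± 0.85 (SD, n = 3) in controls, which differed by -0.88 (SE 0.42; limma, adjusted p = 0.99982). Without control replicate 2 it was -0.39. Megakaryocyte and platelet markers averaged 6.34 to 6.80 over 5 measured genes on the Chd7f/f arrays and 6.77 to 7.19 on the control arrays, highest in control replicate 2. The genes did not move together: Itgb3 and Ppbp were highest in control replicate 2, Gp9 and Pf4 in control replicate 1 and Itga2b in control replicate 3. Pf4 and Ppbp, the platelet granule chemokine genes, were below the filter on dim genes. The part of these cells in the P2rx1 values was not tested, and in sorted bulk samples fewer cells of a type and less RNA per cell cannot be told apart.

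Among the P2Y genes, P2ry1 encodes the ADP receptor that couples to phospholipase C in platelets. It was at 8.03, 8.68 and 8.48 in Chd7f/f and at 5.92, 8.06 and 8.29 in control leukemias. The groups overlapped, and control replicate 1 lay 2.10 below the next array while the other 5 were within 8.03 to 8.68. The mean difference of 0.97 (SE 0.63; limma, adjusted p = 0.99982) was 0.22 without control replicate 1 and 1.40 without control replicate 3.

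P2ry14, which encodes a receptor for UDP-glucose and other UDP-sugars, was at 10.71, 9.96 and 10.28 in Chd7f/f and at 8.42, 10.71 and 10.13 in control leukemias. The groups overlapped, and Chd7f/f replicate 1 and control replicate 2 differed by 0.0045. Here too control replicate 1 was lowest, 1.54 below the next array. The difference of 0.56 (SE 0.59; limma, adjusted p = 0.99982) turned to -0.10 without control replicate 1, was 0.36 without Chd7f/f replicate 1 and reached 1.04 without control replicate 2. P2ry14 lies within the span of Med12l, a Mediator subunit gene on the opposite strand, whose difference was 0.069. Mast cell and basophil markers were also lowest in control replicate 1, at a mean of 8.17 against 8.44 to 8.96 on the other 5 arrays. Ms4a2, Fcer1a and Hdc were lowest there, while Cpa3, Cma1 and Mcpt8 were lowest on other arrays. Tpsb2 and Prss34 were below the filter. Erythroid markers were highest in control replicate 1, at a mean of 10.10. Of these genes Slc4a1 (11.47) and Ermap (11.80) were highest there. Klf1 was highest in control replicate 3, Epor in Chd7f/f replicate 2 and Rhd in Chd7f/f replicate 3. The part of these cell types in the P2ry1 and P2ry14 values was not tested.

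P2ry2, the receptor for ATP and UTP, was between 4.76 and 5.04 in Chd7f/f and between 4.66 and 4.82 in control leukemias. Its 6 arrays spanned 0.38, the narrowest range of the 8 genes, the groups overlapped, and the difference was 0.13 (SE 0.13; limma, adjusted p = 0.99982); without Chd7f/f replicate 1 it was 0.038. The level was below 5.12, the median of named genes, on every array and may lie near background, where RMA compresses differences.

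The ectoenzyme genes were at low levels. Entpd1 was at 5.81, 4.78 and 5.03 in Chd7f/f and at 4.78, 4.72 and 4.58 in control leukemias. The groups were separated by 0.0056 only, and Chd7f/f replicate 1 stood 0.79 above the next array. The difference of 0.51 (SE 0.27; limma, adjusted p = 0.99982) was 0.21 without Chd7f/f replicate 1. Nt5e was at 4.09, 4.05 and 4.15 in Chd7f/f and at 4.20, 4.82 and 4.32 in control leukemias, without overlap but with a gap of 0.047. Its difference of -0.35 (SE 0.18; limma, adjusted p = 0.99982) was -0.16 without control replicate 2. The Chd7f/f mean of Nt5e, 4.10, was below the filter level of 4.13, so this gene entered the test through its control arrays.

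**Figure D2:**
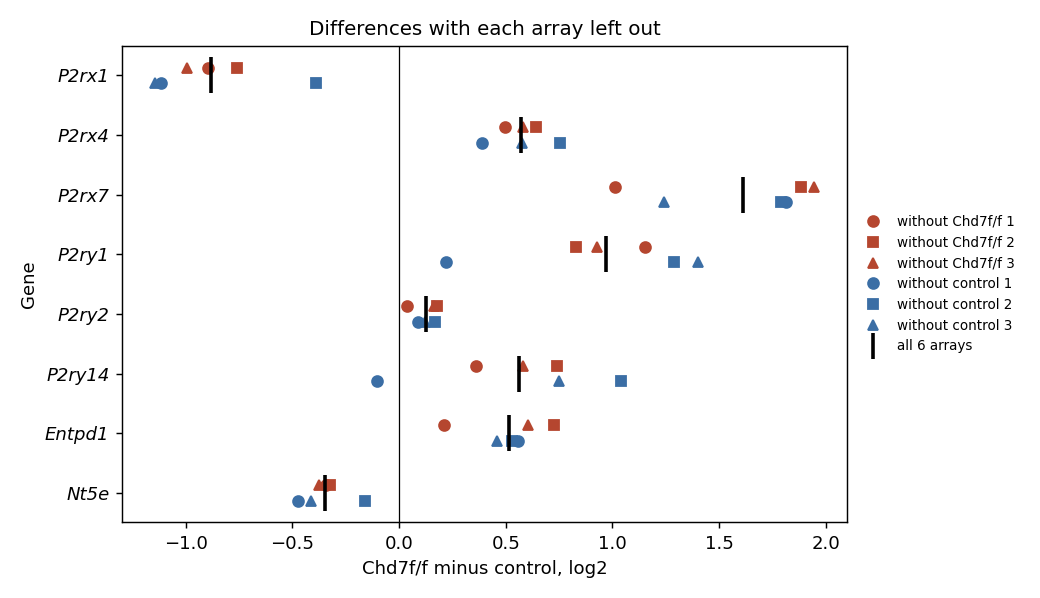
Difference Chd7f/f minus control (log2) of the 8 genes with all 6 arrays (black bars) and with each array left out (red, a Chd7f/f array; blue, a control array; the shape gives the replicate number). P2rx7 stays between 1.01 and 1.94, while P2ry1 and P2ry14 move most without control replicate 1, to 0.22 and -0.10.

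Of the 8 genes, 6 had a positive and 2 a negative difference, with a median of 0.54, against a median of -0.027 over all tested genes. On 3 of them, P2rx7, P2rx4 and Entpd1, all Chd7f/f arrays lay above all control arrays, where 2.45% of tested genes did so. On 2 of them, P2rx1 and Nt5e, all Chd7f/f arrays lay below, where 4.37% did so. Nothing is read from these shares because the list was chosen from this contrast. Of the 7 genes other than P2rx7, 0 passed the adjusted test (limma, 0% of tested genes called) and 1, P2rx4, had an unadjusted p under 0.05 (1.84% of tested genes). Combined with a difference of 1.5-fold or more, 0 of the 7 qualified, where 0.348% of tested genes were higher and 0.432% lower.

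Chd7f/f replicate 1 was the highest array of 5 of the 8 genes, P2rx7, P2rx4, P2ry2, P2ry14 and Entpd1. Over the 6 arrays Pearson's r with P2rx7 was 0.93 for Entpd1, 0.82 for P2ry2 and 0.70 for P2rx4, and without Chd7f/f replicate 1 these were 0.80, 0.26 and 0.53. It was 0.318 for P2ry14, 0.115 for P2ry1, -0.362 for P2rx1 and -0.436 for Nt5e. P2ry1 and P2ry14, which shared their lowest array, control replicate 1, had r = 0.82 with each other. That r rests on control replicate 1. Among the remaining arrays P2ry1 was highest in Chd7f/f replicate 2 (8.68), where P2ry14 was lowest (9.96). There P2ry1 was lowest in Chd7f/f replicate 1 (8.03), where P2ry14 was highest (10.71). The r values describe 6 arrays that all genes share.

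**Figure D3:**
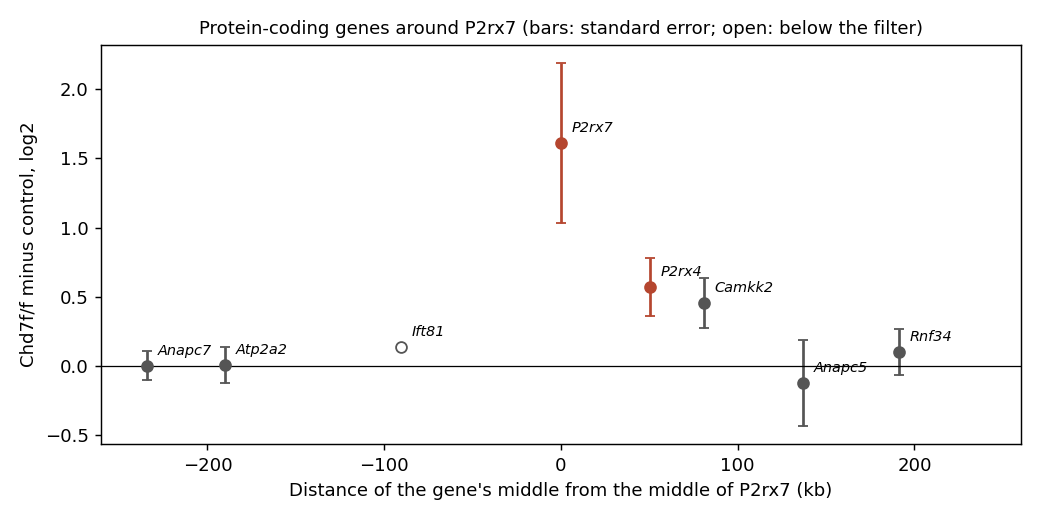
Difference Chd7f/f minus control (log2, bars are limma standard errors) of protein-coding genes whose middle lies within 250 kb of the middle of P2rx7, by distance in kb; Ift81, drawn open, was below the filter. P2rx7, P2rx4 and Camkk2 are at 1.61, 0.57 and 0.46 and the other genes lie between -0.12 and 0.14.

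The genes around P2rx7 were examined after its values were seen. Camkk2, which encodes a calcium-dependent kinase upstream of AMPK, overlaps the P2rx4 span by 11360 bases on the opposite strand; where the probes of either gene lie is not known here. It was at 7.65, 7.78 and 7.27 in Chd7f/f and at 7.12, 7.30 and 6.91 in control leukemias, a difference of 0.46 (SE 0.18) with overlapping groups. On the other side of P2rx7, the ciliary transport gene Ift81 was at most 4.15 on any array. The remaining genes in the window differed by 0.0038 for Anapc7, 0.0076 for the calcium pump gene Atp2a2, -0.12 for Anapc5 and 0.10 for Rnf34.

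Genes whose pattern over the 6 arrays was most like that of P2rx7 were taken among 1996 tested genes with an SD of at least 0.5. Predicted genes, RIKEN clones, snoRNAs and microRNAs were left out before ranking. Neurl3, a ubiquitin ligase gene, was the closest, at 11.56, 10.75 and 10.67 in Chd7f/f and 10.33, 10.58 and 9.93 in control leukemias (Pearson's r = 0.987, and 0.955 without Chd7f/f replicate 1). It was followed by Gsap (0.938), a gamma-secretase activator, the zinc finger gene Zfp831 (0.937) and the histamine receptor gene Hrh4 (0.929). Spic (0.912) encodes an ETS factor of red pulp macrophages, Kat6b (0.909) a histone acetyltransferase, Cd274 (0.907) the checkpoint ligand PD-L1 and Cpvl (0.898) a carboxypeptidase. Of these 8 genes Neurl3, Gsap and Hrh4 had all Chd7f/f arrays above all control arrays (2.45% of tested genes), from which nothing is read because likeness to P2rx7 chose them. Chd7f/f replicate 1 was the highest array of all 8, from which nothing is read for the same reason. Without Chd7f/f replicate 1, r was between 0.649 for Cpvl and 0.955 for Neurl3. The most opposed genes were the quinone oxidoreductase gene Cryz (-0.963), the Polycomb-associated gene Phf19 (-0.950), Zfp267 (-0.948) and the methyltransferase gene Eef1akmt1 (-0.943).

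**Figure D4:**
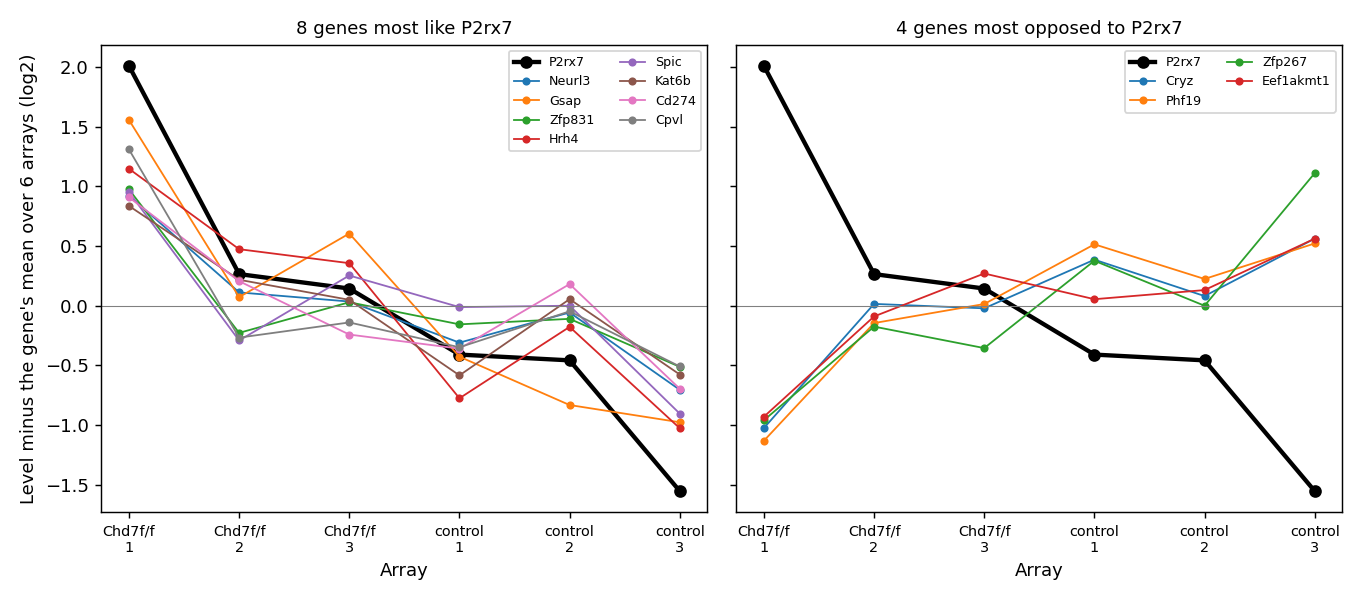
Level of each gene minus its own mean over the 6 arrays (log2) for P2rx7 (black), the 8 genes most like it (left) and the 4 most opposed (right); lines only join the points of a gene, and replicates have no order. Chd7f/f replicate 1 is the highest array of P2rx7 and of the 8 alike genes and the lowest of the 4 opposed ones. Nothing is read from this, because likeness to P2rx7 chose these genes.

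Levels of monocyte and macrophage markers, which mark cells known to carry P2X7 and P2X4, averaged 5.89 to 7.01 over 11 measured genes in Chd7f/f and 5.75 to 6.48 in control leukemias. Of the 11 markers 10 had a positive difference (43.7% of all tested genes did), the smallest being 0.00028 (SE 0.29) for C1qc. All 11 were above the filter. Their mean was highest in Chd7f/f replicate 3, not in the replicate 1 that led for P2rx7. Mpeg1, the perforin-2 gene, alone of the 11 had no overlap between genotypes. Its Chd7f/f arrays lay above the control arrays by a gap of 0.097, where 2.45% of all tested genes lay above and 4.37% below. The difference of Mpeg1 was 1.12 (SE 0.38, limma, adjusted p = 0.99982). Progenitor markers averaged 7.65 to 8.86 over 7 genes in Chd7f/f and 7.36 to 8.34 in control leukemias, highest in Chd7f/f replicate 1 and lowest in control replicate 3, which were also the highest and the lowest array of P2rx7. Within that list Cd34 was at 9.47 in Chd7f/f replicate 1, and no other array exceeded 7.64. The genes did not all follow the mean. Myb (11.24), Elane (7.12) and Ctsg (7.04) were highest in control replicate 1. Cd34 was lowest in Chd7f/f replicate 2 (5.61) and Myb in control replicate 2 (10.30). Mast cell and basophil markers, at 8.96, and dendritic cell markers, at 5.08, were also highest in Chd7f/f replicate 1. Not every gene of these lists was. Hdc was highest in Chd7f/f replicate 2, Xcr1 in Chd7f/f replicate 3 and Ccr7 in control replicate 1. Tpsb2 and Prss34, highest in control replicate 2, and Siglech were below the filter. Erythroid markers were lowest in Chd7f/f replicate 1, at 8.19, with negative differences for all 5 measured genes (8741 of 15526 tested genes were negative). The largest of the 5 was -0.74 (SE 1.52) for Slc4a1. The part of any of these cell types in the P2rx7 values was not tested.

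**Figure D5:**
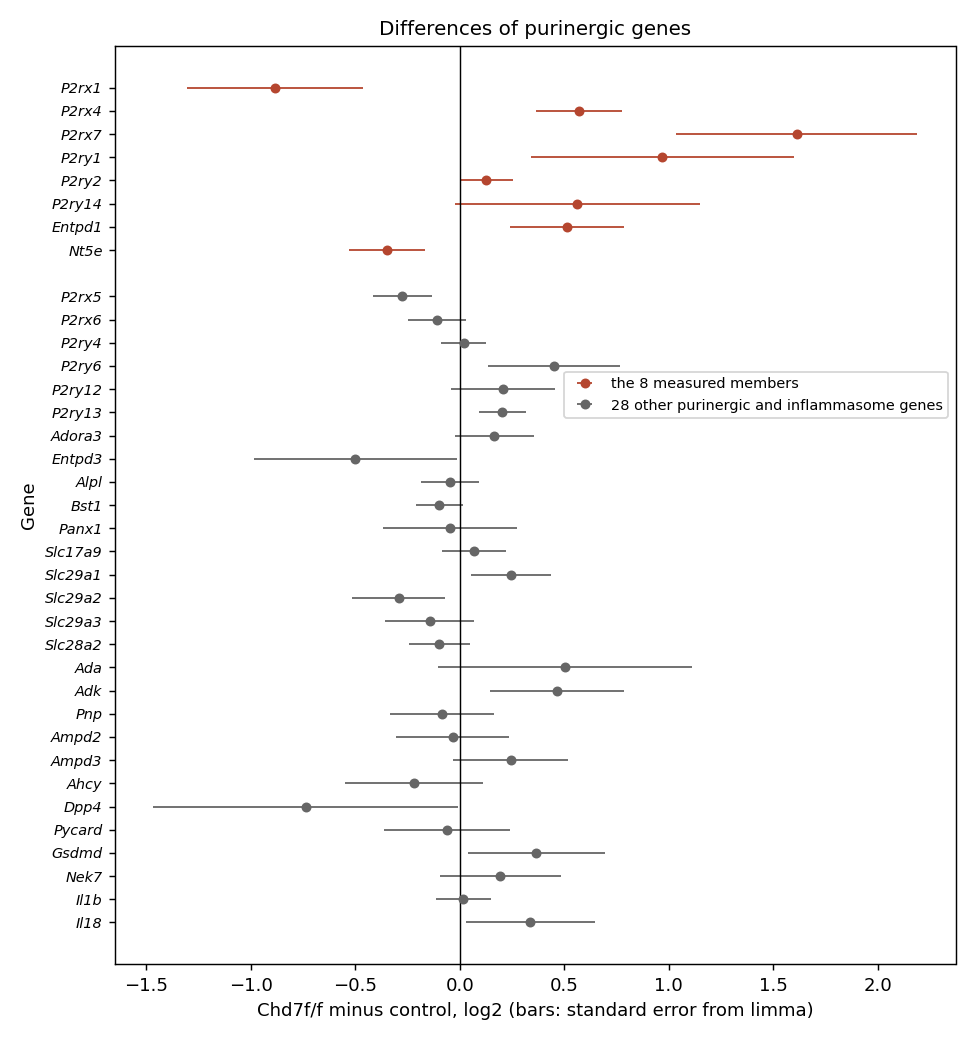
Difference Chd7f/f minus control (log2) of the 8 measured members (red) and of 28 other tested genes of nucleotide sensing, turnover and the inflammasome (grey); points are differences of means of 3 arrays and bars are limma standard errors. P2rx7 has the largest difference at 1.61 and P2rx1 the lowest at -0.88, and the grey genes lie between -0.74 and 0.50.

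A wider list of 40 genes around this pathway was chosen by function; 35 were measured and 28 passed the filter on dim genes. Of the 28, 0 passed the adjusted test in either direction (limma, 0% of tested genes called) and 0 had an unadjusted p under 0.05 (1.84% of tested genes). There were 14 positive and 14 negative differences with a median of -0.0080, where 43.7% of all tested genes were positive with a median of -0.027. All Chd7f/f arrays lay above the control arrays for P2ry13 and below them for P2rx5, that is for 1 gene each way of 28, where 2.45% of all tested genes lay above and 4.37% below. Every adjusted p was 0.99982.

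Other P2X genes were low: P2rx5 was between 4.18 and 4.35 in Chd7f/f and between 4.36 and 4.77 in control leukemias, and P2rx6 differed by -0.11. The Chd7f/f mean of P2rx6, 4.118, was just below the filter level of 4.128, so it entered the test through its control arrays. P2rx2 and P2rx3 were below the filter. All 4 other P2Y genes had positive differences (43.7% of all tested genes did), the smallest being 0.018 (SE 0.11) for P2ry4. P2ry6, the UDP receptor, was at 5.52, 5.86 and 6.73 in Chd7f/f and 5.44, 5.78 and 5.53 in control leukemias, a difference of 0.45 (SE 0.32) with overlapping groups and Chd7f/f replicate 3 highest. The ADP receptor genes P2ry12 and P2ry13 differed by 0.21 and 0.20. Adora3, the adenosine receptor gene known from mast cells, differed by 0.17 (SE 0.19).

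Of the other ectoenzyme genes, Entpd3, a relative of CD39, was at 8.75, 9.21 and 8.50 in Chd7f/f and at 9.93, 9.82 and 8.21 in control leukemias. The groups overlapped and control replicate 3 was the lowest array, so that the difference of -0.50 (SE 0.49) was within the spread. Bst1 and the alkaline phosphatase gene Alpl differed by -0.097 and -0.046. The equilibrative nucleoside transporter genes Slc29a1, Slc29a2 and Slc29a3 differed by 0.25, -0.29 and -0.14. Adk, the adenosine kinase, was at 10.66, 10.28 and 10.04 in Chd7f/f and 9.19, 10.26 and 10.12 in control leukemias, a difference of 0.46 (SE 0.32) with control replicate 1 lowest. Dpp4, a peptidase whose human form binds adenosine deaminase, differed by -0.74 (SE 0.73), and the AMP deaminase gene Ampd3 by 0.24.

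Genes of the inflammasome arm of P2X7 gave no difference past the test. The pore gene Gsdmd was between 7.67 and 7.91 in Chd7f/f and between 6.79 and 8.11 in control leukemias, a difference of 0.37 (SE 0.33). Il18 differed by 0.34 (SE 0.31), and Nek7, which licenses NLRP3, by 0.19 (SE 0.29). Nlrp3, Casp1 and Il1a were below the filter on dim genes, which does not show that they are absent.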

How the data were processed

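The authors deposited log2 values, 1 for each probe set on each array. Per the submitters' processing notes they used RMA in Affymetrix Expression Console, with no version or setting given. The 41345 probe sets ranged from 1.78 to 13.5 and array medians from 4.72 to 4.84; RMA removes differences in total signal. The log base rests on RMA and this range.

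Platform annotation named the probe sets (23521 had 1 symbol, 1814 several, 16010 none listed), and RefSeq (GRCm38.p6) updated the symbols. The protocol for labelling the RNA names a human Gene 2.0 ST array and the design text the mouse one; the values are read here with the mouse annotation of the platform. Genes below the 30th percentile of mean level, 4.13, were not tested. The fit used limma 3.58.1 (R 4.3.3, lmFit and eBayes) with Benjamini-Hochberg adjustment over 15526 genes at 0.05, and was checked on simulated data. With 3 arrays per genotype the smallest exact permutation p would be 0.1. Plots used matplotlib 3.10.9.

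The 10 genes, the lists and the naming rules were chosen with earlier results of these data known. Named were all members, Chd7, Kit, up to 3 genes per role of the wider list with the smallest p, and the 8 genes most like and 4 most opposed to P2rx7. Genes around P2rx7 or P2ry14, Xist, Eif2s3y and genes behind small counts were added after values were seen. Alternatives were other normalizations, filters, probe-set means, a trended robust prior, a replicate block, stricter thresholds and leaving out each array. The labels give no batch or scan date.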

Additional observations from a re-analysis of the deposited data

How the results depend on the processing

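No tested gene and no gene of the wider purinergic list passed the adjusted threshold under any of the alternatives run (limma, 0 each). The count at an unadjusted p under 0.05 was 286; it was 530 without the filter, 159 with the filter at the 50th percentile, 345 with a trended robust prior and 270 to 477 with single arrays left out. With a fold of at least 1.5 as well, 54 genes were higher and 67 lower. Leaving out single arrays gave 35 (without control replicate 1) to 164 (without control replicate 2) higher and 78 to 142 (without control replicate 3) lower. At an unadjusted p under 0.01 and a fold of at least 2 these were 5 higher (1700097N02Rik, Gsap, Hrh4, Mctp1 and Otud1) and 11 lower. The cause of these changes was not tested, other than that fewer or more genes enter with another filter.

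Quantile normalization again and median centring moved the differences of the 8 measured members by at most 0.0443. Probe-set means and the replicate block leave these differences as they are by construction, since each member has 1 probe set and the design is balanced. P2rx7 was between 1.01 and 1.94 with single arrays left out. P2ry14 alone of the 8 changed sign, to -0.10 without control replicate 1.

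Deviations of same-numbered arrays correlated at 0.027, -0.025 and 0.034, and not every array correlated best with its own number. With 3 arrays per genotype these values cannot decide whether replicate numbers pair the samples. The replicate block gave 332 genes at an unadjusted p under 0.05, with 81 higher and 90 lower at the fold of 1.5, and 0 past the adjusted threshold. Detection calls are not analysed here, so levels of P2ry2, Entpd1 and Nt5e may lie near background.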
